A study of Xenopus tropicalis with 2 samples.

Results

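Hox genes encode homeodomain transcription factors that give cells along the head to tail axis their regional identity. The 30 genes described here are all the annotated genes of the Hox clusters A to D, chosen by name, out of 14374 genes measured in single cells of the Xenopus tropicalis tadpole tail. They are described by paralog number and Hox cluster, across the cell clusters of the sorted tail cells, in a regenerating and in an uninjured library.

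Each vertebrate Hox cluster holds its genes in the order in which they act along the body. Genes at the start of a cluster, with the lowest paralog numbers, are switched on first and have the most anterior limits. Genes at the far end come on last, mark the trunk and tail, and tend to override the genes before them. Genes with the same number in different Hox clusters are paralogs, and many paralogs overlap in what they do. In the spinal cord, Hox genes set the segmental identity of progenitors and motor neurons, and Pbx and Meis proteins bind DNA with them as cofactors.

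Both libraries came from tadpoles of a line heterozygous for the transgenes pax6:GFP, cryga:RFP and also actc1:RFP. The 24hpa library holds cells of regenerated tail tissue collected 24 hours after amputation of the posterior end of the tail at NF stage 41, 3 days after fertilization. The uninjured library holds cells of tails at that stage with no earlier amputation. The authors call the single-cell population analogous to that of their chromatin accessibility samples, whose uninjured tissue was the amputated tail tip. Whether both libraries came from the same axial level was not tested. In both, GFP-positive cells from many pooled tails were sorted and captured with a droplet method that counts transcript 3′ ends by unique molecular identifiers (UMIs). GFP was driven by a pax6 promoter, which is active in neural progenitors. GFP protein can outlast the promoter's activity in their descendants, and the sorted cells also included muscle, notochord, skin and other types. Each group was a single library, so no test across samples was possible. Amputation, a day of age, the tissue taken and the library differed together, and their parts in any difference cannot be told apart.

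The deposited matrices held 32798976 UMIs in the 24hpa library and 48622597 in the uninjured library. The authors' cell tables gave 1090 and 2617 cells, of which 295 and 780 were neural, and 1 cell barcode occurred in both. Cells had a median of 10374.5 UMIs at 24hpa and 8289 in the uninjured library. Levels below are UMIs summed over the cells named, scaled to 1000000 UMIs of those cells (CPM), with 95% Poisson intervals that cover counting error only. They depend on where each gene's 3′ end is annotated, so levels of different genes are not per length and their order is approximate. The neural progenitor markers sox2, sox3 and pax6 were highest in the cluster named Spinal Cord Progenitor (989 CPM summed at 24hpa, 1181 uninjured), and the neuron markers in the Motor Neuron cluster (10033 and 7264). The names Myotome and Dermomyotome did not match the markers as well: 4 skeletal muscle genes summed to 543 CPM at 24hpa and 1766 uninjured in Myotome, against 151388 and 87995 in Dermomyotome. A sum of 3 markers of regeneration-organizing cells was highest in Motor Neuron at 24hpa (190 CPM, against 151 in the cluster named ROC) and in ROC uninjured (159 CPM). The marker wnt5a was not in the annotation and is not in this sum, which is thus a weak check on the name ROC. Epidermis markers were highest in Notochord (20039 CPM at 24hpa, 6114 uninjured), above ROC (2107 and 4574), although the notochord markers were also highest in Notochord (14517 and 20647). Spinal Cord Progenitor had 6348 CPM of the epidermis markers at 24hpa, also above ROC, and 4183 CPM uninjured. The epidermis sum is thus a weak check on the names too. Myotome also held notochord markers (7376 CPM at 24hpa, 3255 uninjured) and mesenchyme markers (865 and 1201). Bipotent Progenitor held markers of several cell types. It had 16689 CPM of the skeletal muscle genes at 24hpa and 31302 uninjured, and 1199 and 352 CPM of the neuron markers. The names Myotome, Dermomyotome, ROC, Notochord and Bipotent Progenitor are kept here only as labels.

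All 30 Hox genes were detected in both libraries, from paralog group 1 to group 13. HoxA gave 9 of them, HoxB 5, HoxC 10 and HoxD 6. The Hox genes together had 9934 UMIs in the 24hpa cells (617 CPM, 605 to 629) and 29324 in the uninjured cells (1112 CPM, 1099 to 1125). The most counted gene was hoxc13, a terminal gene of its cluster whose paralogs act at the end of the body axis, with 1807 UMIs at 24hpa and 4565 in the uninjured library. Next came hoxc10, of the paralog group that marks lumbar levels in mouse and chick, with 1304 and 4520 UMIs. hoxc13 was found in 51.5% of 24hpa cells and 56.0% of uninjured cells, and hoxc10 in 47.0% and 58.5%.

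hoxd4, a gene of the posterior hindbrain and neck in mouse, came after them with 808 UMIs at 24hpa and 2392 uninjured. By UMIs summed over both libraries, it was followed by hoxd10 (620 and 1725) and hoxa13 (408 and 1858), whose order differed between the libraries. Transcripts of low and high paralog numbers were thus present side by side in tail cells. At the low end, hoxc3 had 4 UMIs at 24hpa and 9 uninjured, hoxb4 15 and 27, hoxd1 3 and 49, hoxd8 19 and 37, and hoxa4 19 and 79. Among these, hoxb4 overlaps hoxb3 and hoxa4 overlaps hoxa3 in RefSeq. In all, 11 of the 29 members found in RefSeq overlapped another member there. Whether the gene models used for the counts overlap in the same way was not checked. If they do, reads of hoxa3, hoxb3 and hoxd3 and of the genes within them may have been assigned to either or not counted.

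**Figure D1:**
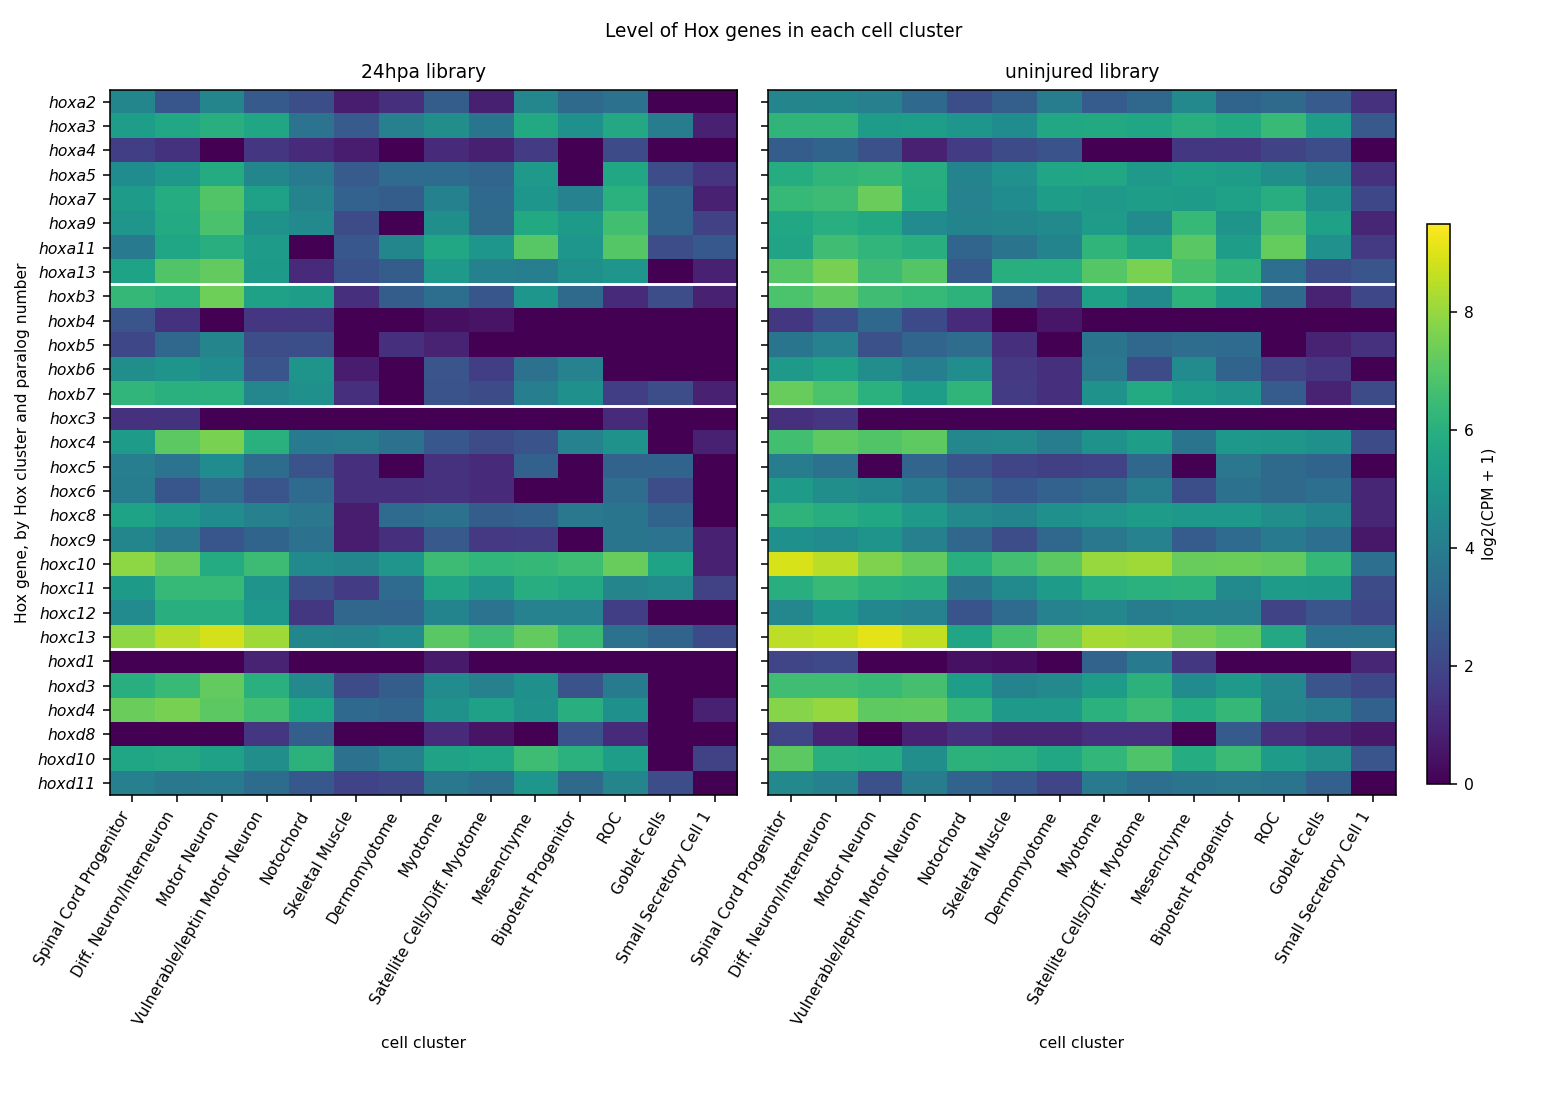
Level of Hox genes (rows, by Hox cluster and paralog number) in 14 cell clusters (columns) of the 24hpa library (left) and the uninjured library (right), as log2(CPM + 1) of summed UMIs. hoxc10 and hoxc13 are brightest in the neural columns at the left of each panel, with hoxc13 at 476 CPM at 24hpa and 553 CPM uninjured in Motor Neuron, and the HoxB rows are dark in the muscle and ROC columns.

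Over all neural cells pooled, Hox transcripts were more abundant than in any cluster of other cells. Their summed level was 1376 CPM (1336 to 1417) in neural cells at 24hpa and 2285 CPM (2249 to 2322) in uninjured neural cells. Mesenchyme had 904 CPM at 24hpa and 1265 uninjured, and ROC, named after the regeneration-organizing cells, an epidermal population required for tail regeneration, had 807 and 898. In the uninjured library Satellite Cells/Differentiating Myotome (1538 CPM) and Myotome (1400 CPM) were above Mesenchyme. The neural cluster Motor Neuron (leptin+) alone had 807 CPM at 24hpa, below Mesenchyme. Notochord had 420 and 668 CPM, and Goblet Cells 160 and 426. Low levels were found in Small Secretory Cell 1, with 25.3 CPM at 24hpa and 81.9 uninjured, and in Small Secretory Cell 2, with 21.4 and 96.1. Free RNA, taken from barcodes with at most 100 UMIs, held Hox transcripts at 611 CPM at 24hpa (547 to 681) and 1029 CPM uninjured (963 to 1098), close to the level over all cells of each library.

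At least 1 Hox UMI was found in 99.3% of neural cells at 24hpa and 99.6% uninjured. The matching shares in Small Secretory Cell 1, a cluster of low Hox level used here as a background, were 13.7% and 35.1%. Median depths were 8473 and 7353 UMIs in neural cells, and 6282.5 and 4885 in Small Secretory Cell 1. With every cell thinned to 2600 UMIs, the neural shares were 93.7% at 24hpa and 98.4% uninjured, against 5.68% and 19.3% in Small Secretory Cell 1. A neural cell held a mean of 7.72 different Hox genes at 24hpa and 9.23 uninjured, or 3.10 and 4.40 after thinning. Small Secretory Cell 1 held a mean of 0.20 and 0.48, or 0.08 and 0.22 after thinning. Its low Hox level was the ground for using it as background, so higher neural values are no added evidence. Its globin genes summed to 0.84 CPM at 24hpa and 4113 CPM uninjured, so it may not hold the same kind of cell in both libraries. In the neural cluster Motor Neuron (leptin+), the mean after thinning was 1.99 at 24hpa and 4.03 uninjured.

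In neural cells, Hox transcripts were lower at 24hpa. The log2 ratio of their summed level, 24hpa over uninjured, was -0.73 (-0.78 to -0.68). A gene is counted as changed below when its level differed at least 2-fold and it had at least 20 UMIs over both libraries. By this rule 10 of 27 Hox genes tested in neural cells were lower at 24hpa, where 8.88% of all 9501 genes tested were, and 0 were higher, where 8.76% of all genes were. The median log2 ratio was -0.73 over the 27 Hox genes and 0.09 over all genes, and 24 of the 27 were below 0, as were 44.0% of all genes. The makeup of the neural cells differed too: 68 of 295 were in the Motor Neuron (leptin+) cluster at 24hpa and 27 of 780 in the uninjured library. Without that cluster 7 Hox genes were lower (7.72% of all genes), and with cluster makeup set to that of the uninjured library 8 were (8.17%). Counted as UMIs per cell and not as CPM, 4 were lower (5.65% of all genes) and 0 higher (19.0%).

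Among the posterior genes, hoxc10 and hoxa13 were lower at 24hpa. For hoxc10 there were 522 UMIs in 24hpa neural cells (160 CPM) and 2411 in uninjured neural cells (359 CPM), a log2 ratio of -1.17 (-1.31 to -1.03). For hoxa13, which in mouse and human acts in the distal limb and the hindgut as well as the tail, there were 203 UMIs (62.1 CPM) at 24hpa and 963 (143 CPM) uninjured, a ratio of -1.21 (-1.43 to -0.99). Without Motor Neuron (leptin+) the ratios of hoxc10 and hoxa13 were -0.98 and -0.95, short of 2-fold. Paralogs of these genes did not all move alike. Of paralog group 10, hoxd10, a lumbar motor neuron gene in mouse, had 40.1 CPM at 24hpa and 87.6 CPM uninjured (-1.13). Of group 13, hoxc13 had 951 UMIs (291 CPM) at 24hpa and 2607 (388 CPM) uninjured, a ratio of -0.41 (-0.52 to -0.31) that stayed within 2-fold, and its interval did not overlap that of hoxa13.

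Group 11, which patterns sacral levels and the forearm in mouse, was also split at the 2-fold line. hoxa11 had 32.7 CPM at 24hpa and 70.2 CPM uninjured, a log2 ratio of -1.10 (-1.42 to -0.79). Within 2-fold were hoxc11, with 46.2 and 69.1 CPM, and hoxd11, with 14.1 and 17.8 CPM. Of group 9, hoxa9 had 40.1 and 48.2 CPM (-0.27, -0.57 to 0.03), and hoxc9, which in mouse sets thoracic motor neuron identity, 12.8 and 22.7 CPM (-0.82). The gene with the highest ratio in neural cells was hoxc12, the only group 12 member measured. It had 117 UMIs (35.8 CPM) at 24hpa and 160 (23.8 CPM) uninjured, a ratio of 0.59 (0.23 to 0.94), which is above 0 by its counting interval and short of 2-fold.

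The central genes, groups 4 to 8, act at neck and thoracic levels. Lower at 24hpa in neural cells were hoxa4 (6 UMIs at 24hpa, 35 uninjured), hoxa5 (85 and 428), hoxb5 (17 and 90), hoxc6 (32 and 182) and hoxb7 (182 and 768). Of these, hoxa5, which in mouse is needed for neck skeleton and lung, had a log2 ratio of -1.29 (-1.64 to -0.95), with 26.0 CPM at 24hpa and 63.6 CPM uninjured. hoxc6, a gene of forelimb-level motor neurons in mouse and chick, had 9.79 and 27.1 CPM (-1.47, -2.06 to -0.92). hoxb7 had 55.7 and 114 CPM (-1.04, -1.28 to -0.80). Within 2-fold, hoxd4 was the most abundant central gene, with 142 CPM at 24hpa and 209 CPM uninjured (-0.55, -0.71 to -0.40).

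The other central genes stayed within 2-fold. hoxc4 had 75.9 CPM at 24hpa and 124 CPM uninjured, and hoxa7 47.7 and 79.3 CPM. hoxc8, which in mouse and chick marks brachial motor pools, had 30.9 and 59.0 CPM, and hoxb6 18.7 and 33.6 CPM. For hoxc5 (43 UMIs at 24hpa, 82 uninjured) and hoxb4 (10 and 19) the log2 ratio was 0.11 in both cases, with intervals on both sides of 0. hoxd8 had fewer than 20 UMIs in neural cells and was not tested there.

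The anterior genes, groups 1 to 3, act in the hindbrain and pharyngeal region. hoxa2, which gives the second pharyngeal arch its identity, had 11.6 and 16.4 CPM (-0.49, -1.06 to 0.05). The group 3 genes hoxa3, hoxb3 and hoxd3 were the most abundant of the anterior class and had ratios above the median of the members. Their RefSeq models overlap those of genes with higher paralog numbers, so reads of either may have been assigned to the other or not counted. hoxb3 had 72.5 CPM at 24hpa and 116 CPM uninjured (-0.68), hoxd3 74.3 and 95.3 CPM (-0.36), and hoxa3, needed for thymus and parathyroid formation in mouse, 46.2 and 64.2 CPM (-0.48). hoxc3 and hoxd1 were not tested in neural cells because they had fewer than 20 UMIs there.

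**Figure D2:**
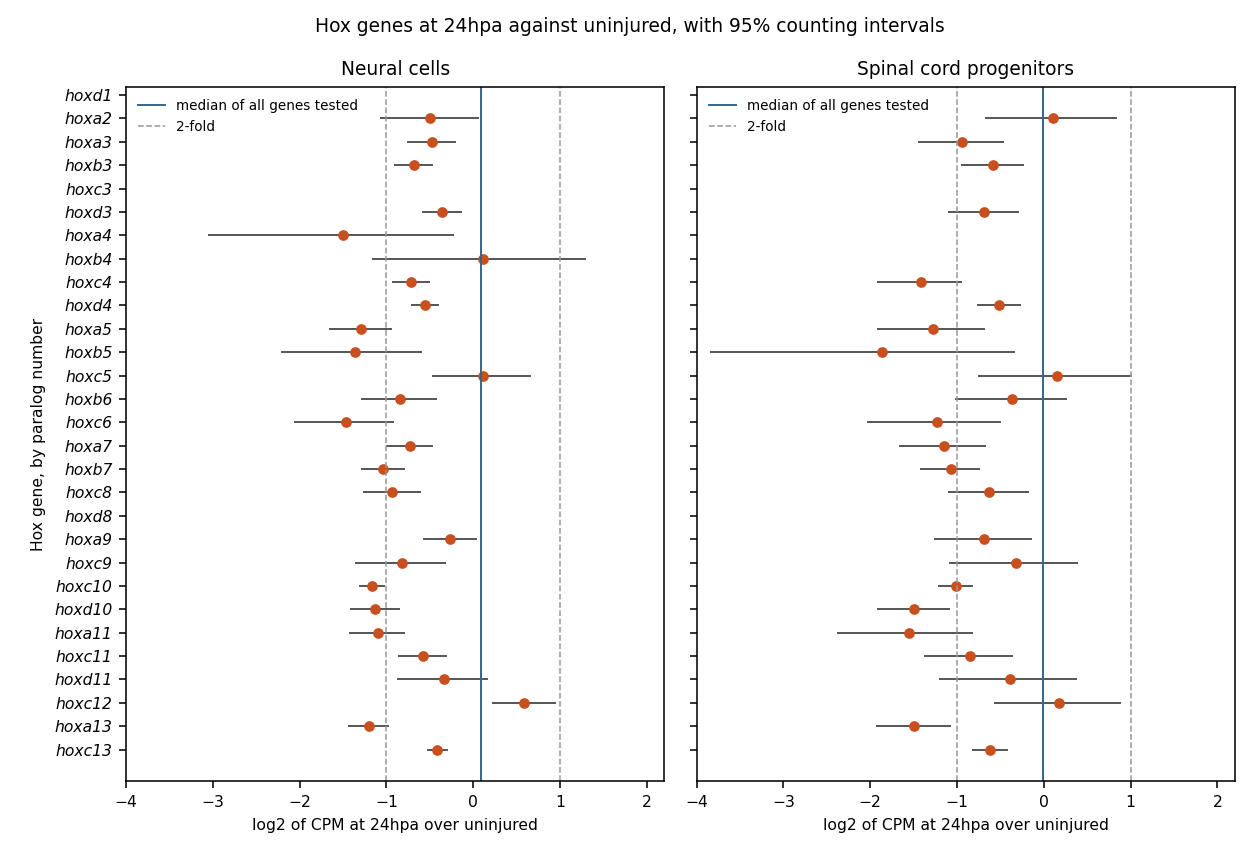
log2 of CPM at 24hpa over uninjured for Hox genes, ordered by paralog number, in neural cells (left) and in Spinal Cord Progenitor (right). Points are ratios and bars 95% counting intervals, dashed lines mark 2-fold, the solid line is the median of all genes tested (0.09 in neural cells), and genes with fewer than 20 UMIs are left blank. In neural cells most points lie left of the median of all genes, several, hoxc10 and hoxa13 among them, lie beyond the lower 2-fold line, and hoxc12 (0.59) lies to the right.

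Over all cells of the 2 libraries together, 12 of 29 Hox genes were lower at 24hpa, against 10.7% of all genes, and 0 were higher, against 7.81%. They included hoxa4, hoxa5, hoxa13, hoxb3, hoxb5, hoxb7, hoxc4, hoxc6, hoxc8, hoxc10 and hoxd1. hoxa13 had 25.4 CPM at 24hpa and 70.4 CPM uninjured, a log2 ratio of -1.47 (-1.63 to -1.32). hoxb7 had 16.5 and 51.7 CPM (-1.65, -1.85 to -1.46). Near 0 were hoxa11, with 33.7 CPM at 24hpa and 36.1 CPM uninjured (-0.10, -0.25 to 0.06), and hoxd11, with 9.94 and 9.14 CPM (0.12, -0.18 to 0.42). Counted as UMIs per cell, 3 genes were lower (5.39% of all genes) and 0 higher (23.2%). These ratios mix changes within cell types with a different makeup of cell types. The comparisons that follow next stay within cell clusters, and pooled cells return further below.

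Spinal cord progenitors, 71 cells at 24hpa and 273 uninjured, had a summed Hox level of 1362 CPM at 24hpa and 2484 CPM uninjured, a log2 ratio of -0.87. In this cluster 11 of 25 Hox genes were lower at 24hpa, against 9.64% of all genes, and 0 were higher, against 6.27%. They included hoxa5, hoxa7, hoxa11, hoxa13, hoxb5, hoxb7, hoxc4, hoxc6, hoxc10 and hoxd10. hoxc10 had 299 UMIs (241 CPM) at 24hpa and 1167 (488 CPM) uninjured, a ratio of -1.02 (-1.20 to -0.83). hoxa13 had 57 UMIs (46.0 CPM) and 309 (129 CPM), and hoxd10 had 61 (49.2 CPM) and 331 (138 CPM), with a ratio of -1.49 for each. hoxc13, with 295 UMIs (238 CPM) at 24hpa and 875 (366 CPM) uninjured, stayed within 2-fold at -0.62 (-0.82 to -0.43).

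The progenitors of the 2 libraries differed in depth, with a median of 14090 UMIs per cell at 24hpa and 7739 uninjured. Counted per cell and not as CPM, the summed Hox level was 23.8 UMIs per progenitor at 24hpa and 21.8 uninjured. hoxc10 then had 4.21 UMIs per progenitor at 24hpa and 4.27 uninjured, hoxc13 4.15 and 3.21, and hoxd4 2.77 and 1.99. On this scale 1 of 25 Hox genes was at least 2-fold lower at 24hpa (3.21% of all genes) and 3 were higher (48.8%). The median log2 ratio per cell was 0.14 over the Hox genes and 0.98 over all genes tested. Counting per cell shifts every gene's ratio by the same amount, so the gap between these medians is the same on both scales by construction, while the direction of the Hox genes against 0 depended on the scale. Whether the deeper progenitors at 24hpa held more RNA or were sequenced more deeply was not tested.

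The neuron clusters differed in how far Hox levels were apart between libraries. Differentiating Neuron (31 cells at 24hpa, 155 uninjured) had 1784 CPM at 24hpa and 2481 CPM uninjured, and 7 of 25 Hox genes were lower (14.5% of all genes were) and 0 higher (7.45%). They included hoxa2, hoxa5, hoxa11, hoxb3, hoxc6 and hoxc9. Interneurons (27 and 37 cells) had 1756 and 2763 CPM, with 5 of 16 Hox genes lower (6.3% of all genes) and 0 higher (10.4%). Here the 5 were hoxa3, hoxa5, hoxa7, hoxb7 and hoxc10, and hoxb7 had the lowest ratio, with 43.0 CPM at 24hpa and 144 CPM uninjured (-1.74, -2.90 to -0.72).

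Motor neurons gave the widest range. In the cluster named Motor Neuron (33 cells at 24hpa, 52 uninjured) the summed level was 2142 CPM at 24hpa and 2076 CPM uninjured, a log2 ratio of 0.05 (-0.14 to 0.23). Per cell the Hox sum was 13.6 UMIs at 24hpa and 9.42 uninjured, at median depths of 6174 and 4000.5 UMIs. There 1 of 15 Hox genes was lower (8.67% of all genes) and 1 higher (13.2%). The lower one was hoxc10, with 12 UMIs (57.1 CPM) at 24hpa and 47 (199 CPM) uninjured (-1.80, -2.85 to -0.86). The higher one was hoxa9, with 23 UMIs (109 CPM) and 11 (46.6 CPM), a ratio of 1.23 (0.14 to 2.42) that rests on few counts. hoxc13 was the most abundant Hox gene of this cluster, with 476 CPM at 24hpa and 555 CPM uninjured.

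In Vulnerable Motor Neuron (56 cells at 24hpa, 164 uninjured) the summed level was 1394 CPM at 24hpa and 1779 CPM uninjured. Of 21 Hox genes, 5 were lower (6.52% of all genes), namely hoxa5, hoxa13, hoxb6, hoxc6 and hoxc9, and 1 was higher (13.7%). The higher gene was hoxc12, with 20 UMIs (47.2 CPM) at 24hpa and 16 (13.9 CPM) uninjured, a log2 ratio of 1.76 (0.74 to 2.81). In Motor Neuron (leptin+), with 68 and 27 cells, the summed level was 807 CPM at 24hpa and 1872 CPM uninjured, a ratio of -1.21. This cluster had the lowest Hox level of the neuron clusters at 24hpa but not in the uninjured library, where Vulnerable Motor Neuron was lower. In it 9 of 15 Hox genes were lower (8.76% of all genes) and 0 higher (21.9%), and hoxa13 had 13 UMIs (18.8 CPM) at 24hpa and 42 (160 CPM) uninjured (-3.08, -4.11 to -2.16). The other 8 were hoxa5, hoxb3, hoxc4, hoxc8, hoxc10, hoxc11, hoxc13 and hoxd3. Dopaminergic Neurons (8 and 49 cells) had 1650 and 1907 CPM, and Floor Plate had 1 cell at 24hpa, too few for a comparison.

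In the cluster labelled Notochord, Hox levels were lower than in the neural cells and of another kind. Its leading genes at 24hpa were hoxd10, with 67.3 CPM at 24hpa and 68.2 CPM uninjured, hoxd4, with 47.0 and 78.6 CPM, and hoxb3, with 38.7 and 69.9 CPM. The terminal gene hoxa13 had 1.27 CPM at 24hpa and 5.37 CPM uninjured, close to its 0.84 and 4.71 CPM in Small Secretory Cell 1. hoxa11 had 0 UMIs at 24hpa and 45 uninjured, a log2 ratio of -1.99 or below when 3 UMIs are taken as the floor. Of 25 Hox genes, 9 were lower at 24hpa (12.3% of all genes) and 0 higher (11.8%): hoxa3, hoxa11, hoxa13, hoxb5, hoxb7, hoxc10, hoxc11, hoxc12 and hoxc13. hoxb7 had 41 UMIs (26.0 CPM) at 24hpa and 434 (72.9 CPM) uninjured, a ratio of -1.49 (-1.98 to -1.02), while hoxd10 was at -0.02 (-0.34 to 0.29).

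The clusters with muscle-lineage names had lower Hox levels at 24hpa. Skeletal Muscle had 128 CPM at 24hpa and 602 CPM uninjured, and 16 of 19 Hox genes were lower (33.3% of all genes) and 0 higher (6.21%). Dermomyotome had 192 and 806 CPM, with 14 of 16 lower (34.4%) and 0 higher (3.56%). In both clusters many other genes were also lower, and the median of all genes was -0.52 in Skeletal Muscle and -0.62 in Dermomyotome, against -2.26 and -2.10 for the Hox genes. In Skeletal Muscle, hoxa13 had 6 UMIs (4.21 CPM) at 24hpa and 252 (62.3 CPM) uninjured, a ratio of -3.89 (-5.35 to -2.75), and hoxc13 had 26 (18.2 CPM) and 424 (105 CPM), at -2.52 (-3.15 to -1.95). The part that the high share of contractile transcripts plays in these CPM values was not tested, and per cell the Hox sum was 3.10 UMIs at 24hpa and 5.91 uninjured in Skeletal Muscle.

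Satellite Cells/Differentiating Myotome had 441 CPM at 24hpa and 1538 CPM uninjured, with 18 of 21 Hox genes lower (18.7% of all genes) and 0 higher (7.12%). Their median depth was 23549 UMIs per cell at 24hpa and 9345 uninjured, and per cell the Hox sum was 10.5 UMIs at 24hpa and 15.1 uninjured. hoxa13 again had one of the lowest ratios, with 43 UMIs (17.2 CPM) at 24hpa and 268 (193 CPM) uninjured (-3.49, -3.99 to -3.02). hoxa11 stayed within 2-fold there, with 30.5 and 45.5 CPM (-0.58). In the cluster labelled Myotome the summed level was 608 CPM at 24hpa and 1400 CPM uninjured. Depth differed here too, with a median of 17295.5 UMIs per cell at 24hpa and 8432 uninjured. Per cell the Hox sum of Myotome was 10.6 UMIs at 24hpa and 12.0 uninjured. There 13 of 21 Hox genes were lower (11.0% of all genes) and 0 higher (11.0%), with hoxc13 at 132 CPM at 24hpa and 297 CPM uninjured (-1.17) and hoxa11 at 49.6 and 73.5 CPM (-0.57).

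Mesenchyme and ROC shared a high level of hoxa11. It was 128 CPM at 24hpa and 134 CPM uninjured in Mesenchyme, and 126 and 150 CPM in ROC, with log2 ratios of -0.06 (-0.59 to 0.46) and -0.25 (-0.66 to 0.15). In Mesenchyme 4 of 17 Hox genes were lower at 24hpa (6.96% of all genes), namely hoxa13, hoxb3, hoxb7 and hoxc8, and 1 was higher (10.0%), hoxd11, with 14 and 6 UMIs. hoxa13 had 7 UMIs (15.5 CPM) at 24hpa and 55 (105 CPM) uninjured there, a ratio of -2.76 (-4.14 to -1.63). In Bipotent Progenitor, a cluster of mixed markers, 7 of 16 Hox genes were lower (18.0%) and 1 was higher (14.4%). The lower ones were hoxa3, hoxa5, hoxa7, hoxa13, hoxb3, hoxc8 and hoxd3. The higher one was hoxc11, with 12 UMIs in each library.

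ROC was led by other members than the neural clusters. It had 98.5 CPM of hoxa9 at 24hpa and 113 CPM uninjured, but 10.8 and 52.1 CPM of hoxc13, the most abundant Hox gene over all neural cells pooled. Of 16 Hox genes, 2 were lower at 24hpa (18.7% of all genes), hoxc13 with 9 and 36 UMIs (-2.27, -3.51 to -1.19) and hoxc8 with 10 and 17 UMIs. Another 2 were higher (14.5%), both of which were lower in neural cells. Each count is 12.5% of the Hox genes tested, which is not above the share of all genes in either direction. hoxa13 had 25 UMIs (30.0 CPM) at 24hpa and 7 (10.1 CPM) uninjured, a ratio of 1.57 (0.32 to 3.02). hoxa5 had 41 UMIs (49.2 CPM) and 17 (24.6 CPM), a ratio of 1.00 (0.15 to 1.91). Both intervals lie above 0, but the counts are small.

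**Figure D3:**
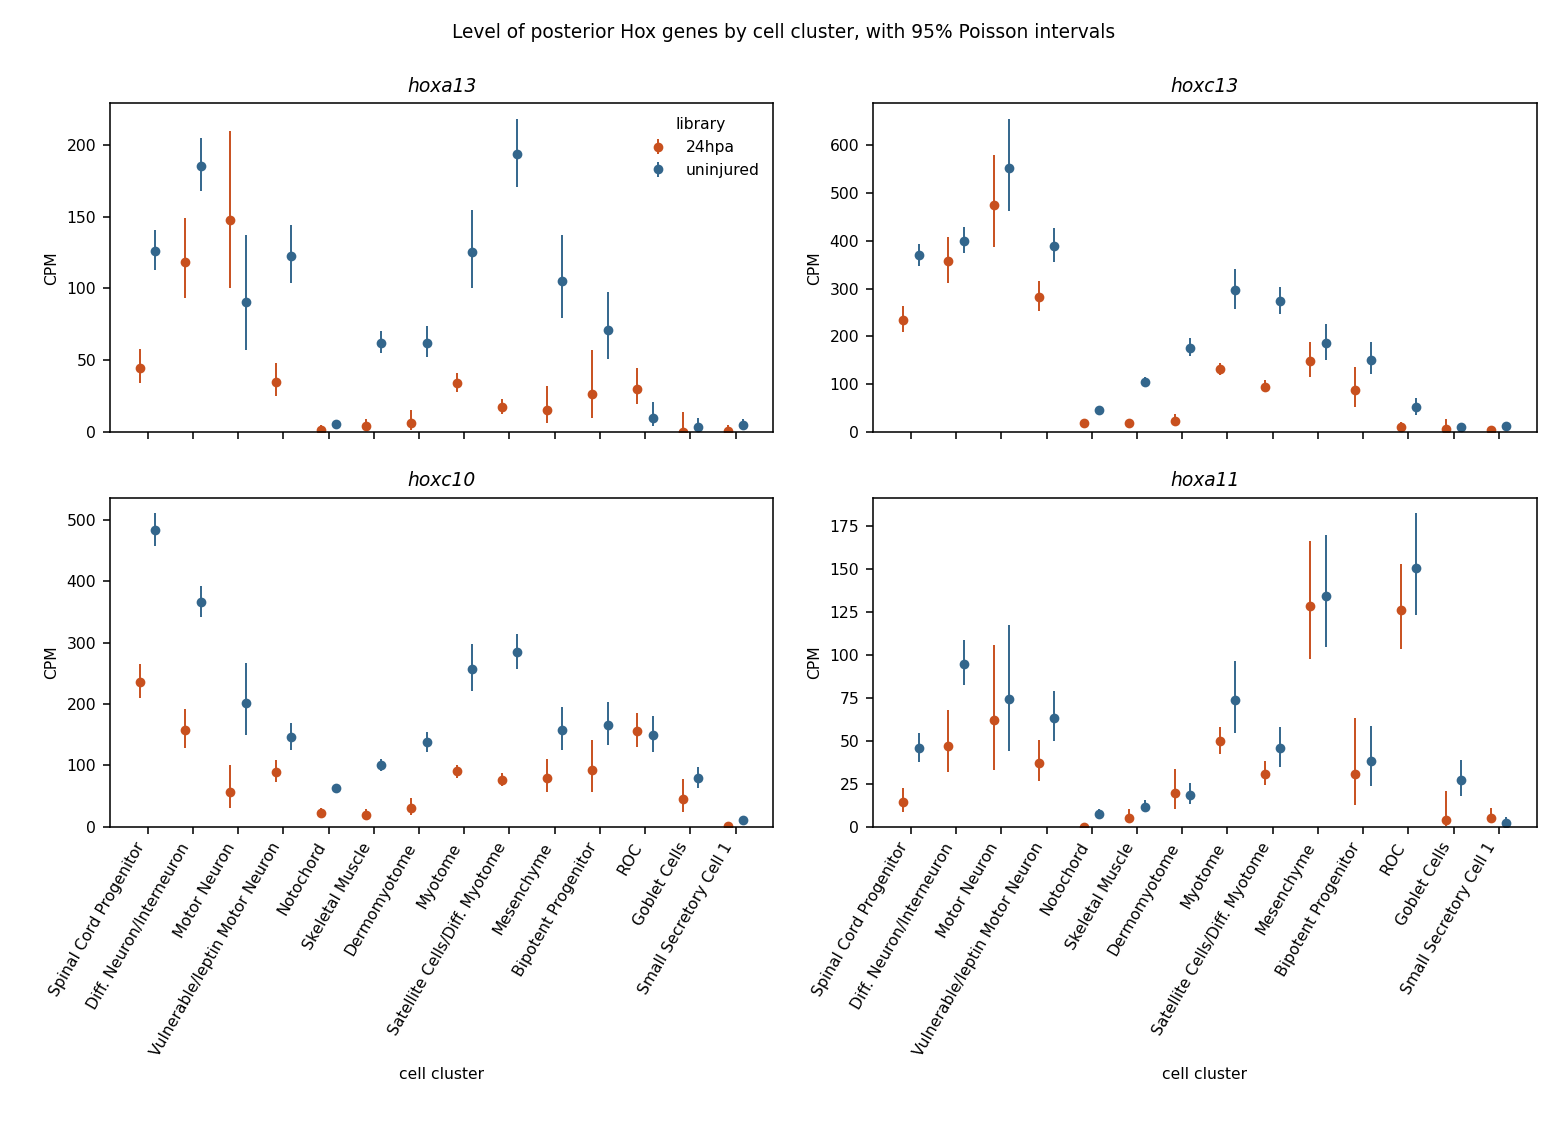
CPM (y axis) of hoxa13, hoxc13, hoxc10 and hoxa11 in 14 cell clusters (x axis), 24hpa in orange left of uninjured in blue, with 95% Poisson intervals. hoxa13 is lower at 24hpa in most clusters, the points reverse in Motor Neuron and ROC (30.0 CPM at 24hpa and 10.1 CPM uninjured in ROC), and hoxa11 peaks in Mesenchyme and ROC.

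The posterior class held a similar share of Hox UMIs in neural cells of both libraries. Posterior genes, groups 9 to 13, made up 53.4% of Hox UMIs at 24hpa and 53.8% uninjured, a difference of -0.39 percentage points (-2.05 to 1.26). Central genes made up 31.3% and 32.6%, and anterior genes 15.3% and 13.6%. The overlap of the hoxa3, hoxb3 and hoxd3 models with genes of higher paralog number, seen in RefSeq, may affect these shares. Within the posterior class, the shares shifted between groups. Group 10 made up 14.5% of Hox UMIs at 24hpa and 19.5% uninjured, a difference of -5.00 points (-6.19 to -3.78). Group 12 made up 2.60% and 1.04%, and group 13 25.7% and 23.2%. Groups 10 to 13 together held 49.5% at 24hpa and 50.7% uninjured, a difference of -1.14 points. Groups 11 to 13, a cut that was not planned and leaves out group 10, held 35.0% and 31.2%, 3.87 points more (2.30 to 5.45). By neural cluster the difference for groups 11 to 13 was between -1.08 in Motor Neuron (leptin+) and 6.79 in Interneurons, Floor Plate left out.

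Over all cells, posterior genes held 60.8% of Hox UMIs at 24hpa and 55.5% uninjured, 5.35 points more (4.23 to 6.46). With each library set to the cluster makeup of the uninjured one the difference was -1.57 points, and as mean CPM per cell it was 1.63 points. The direction over all cells thus depended on how clusters were weighted. Why the makeup differed was not tested. By tissue label the posterior share ran from 36.6% at 24hpa and 36.0% uninjured in Notochord to 75.3% and 69.6% in Myotome. Groups 11 to 13 held only 7.56% of Hox UMIs in the Notochord cluster at 24hpa and 12.5% uninjured, where its posterior share came mostly from hoxd10. In Myotome they held 48.3% and 42.1%.

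Hox clusters were used unequally by tissue label. HoxC held 49.1% of neural Hox UMIs at 24hpa and 47.5% uninjured, while HoxA led in ROC, with 55.2% and 51.7%. HoxD held 35.0% and 29.2% in Notochord, against 19.7% and 18.1% in neural cells. HoxB, of which only groups 3 to 7 were measured, held 23.8% of Hox UMIs in the Notochord cluster at 24hpa and 26.6% uninjured, and 11.3% and 12.3% of the neural ones. It was scarce in ROC (0.45% at 24hpa, 1.93% uninjured), Skeletal Muscle (2.73% and 2.01%) and Dermomyotome (3.94% and 0.73%). The rank of the tissue labels in HoxB share was thus alike in both libraries at its upper end, with Notochord above the neural cells and the neural cells above Skeletal Muscle and ROC.

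**Figure D4:**
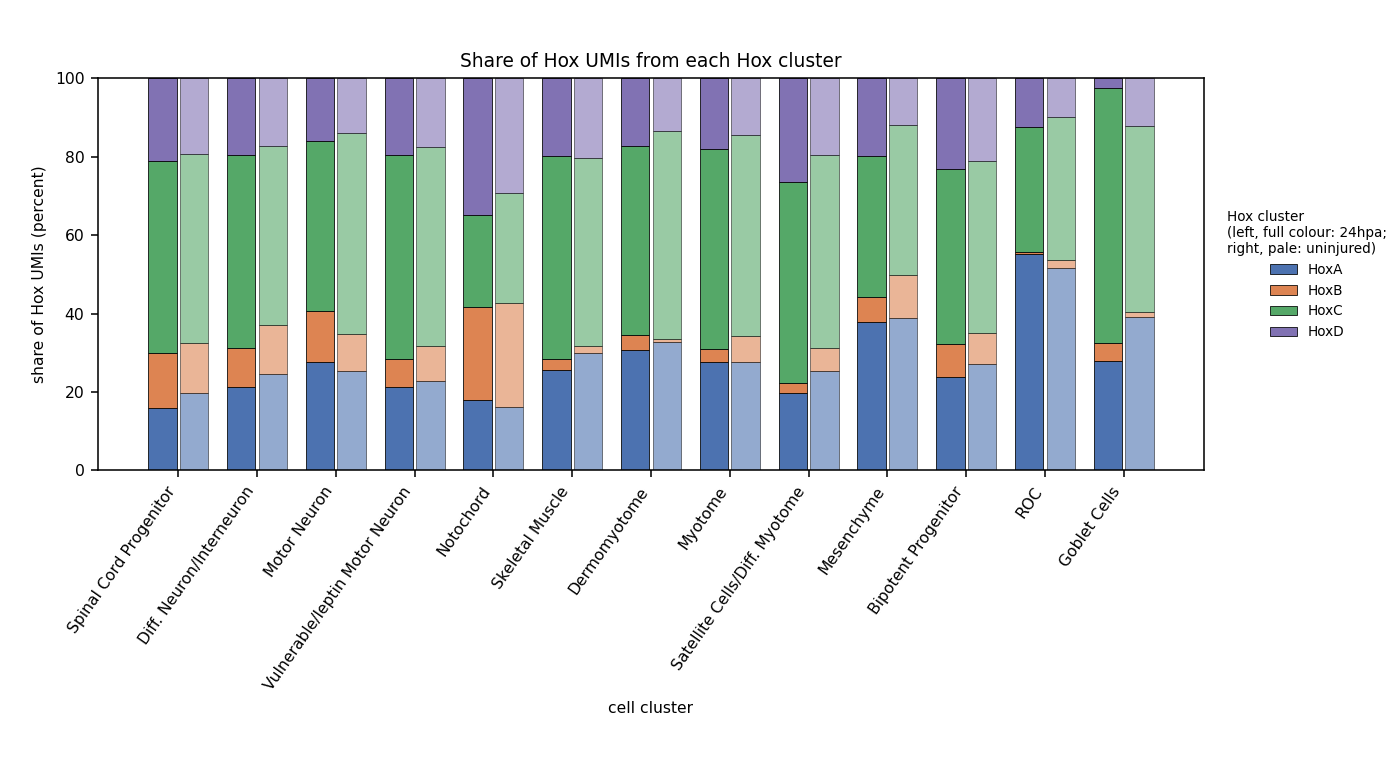
Share of Hox UMIs (percent, y axis) from HoxA, HoxB, HoxC and HoxD in each cell cluster (x axis), 24hpa at the left of each pair in full colour and uninjured at the right in paler colour. HoxB takes a large part in Notochord (23.8% at 24hpa, 26.6% uninjured) and almost none in ROC, where HoxA takes 55.2% at 24hpa and 51.7% uninjured.

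Within the neural lineage, neurons and progenitors of the same library were also compared. Neurons here are the Interneurons, Motor Neuron, Vulnerable Motor Neuron, Motor Neuron (leptin+) and Dopaminergic Neurons clusters together. Of 23 Hox genes tested, 3 were at least 2-fold lower in neurons in both libraries (16.3% of all 7396 genes were), and 1 was higher in both (20.3%). Hox genes were thus past 2-fold in both libraries no more often than genes at large. The most abundant of the 3 was hoxc10, with 91.1 CPM in neurons and 241 CPM in progenitors at 24hpa (log2 ratio -1.40, -1.70 to -1.12), and 194 and 488 CPM in the uninjured library (-1.33, -1.49 to -1.17). It was below the progenitor level in every one of the 5 neuron clusters of both libraries, from 57.1 CPM in Motor Neuron to 170 CPM in Dopaminergic Neurons at 24hpa, and from 161 CPM in Vulnerable Motor Neuron to 254 CPM in Interneurons uninjured. The others were hoxb7 (-1.19 at 24hpa, -1.20 uninjured) and hoxc6 (-1.34 and -1.15).

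The gene that was higher in neurons was hoxa11. It had 47.4 CPM in neurons and 14.5 CPM in progenitors at 24hpa (1.71, 0.95 to 2.53), and 88.4 and 42.7 CPM in the uninjured library (1.05, 0.70 to 1.41). hoxc13 was nearer to even, with log2 ratios of 0.46 at 24hpa and 0.19 uninjured. Past 2-fold in 1 library were hoxa2, hoxb6, hoxc8 and hoxc9 (lower in neurons at 24hpa), hoxc4 (higher at 24hpa) and hoxd10 (lower in the uninjured library), and none of these had a ratio of opposite sign in the other library. In Motor Neuron at 24hpa, 3′ counts of hoxc13 (476 CPM) were well above those of hoxc10 (57.1 CPM), whereas in progenitors at 24hpa they were alike (238 and 241 CPM).

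**Figure D5:**
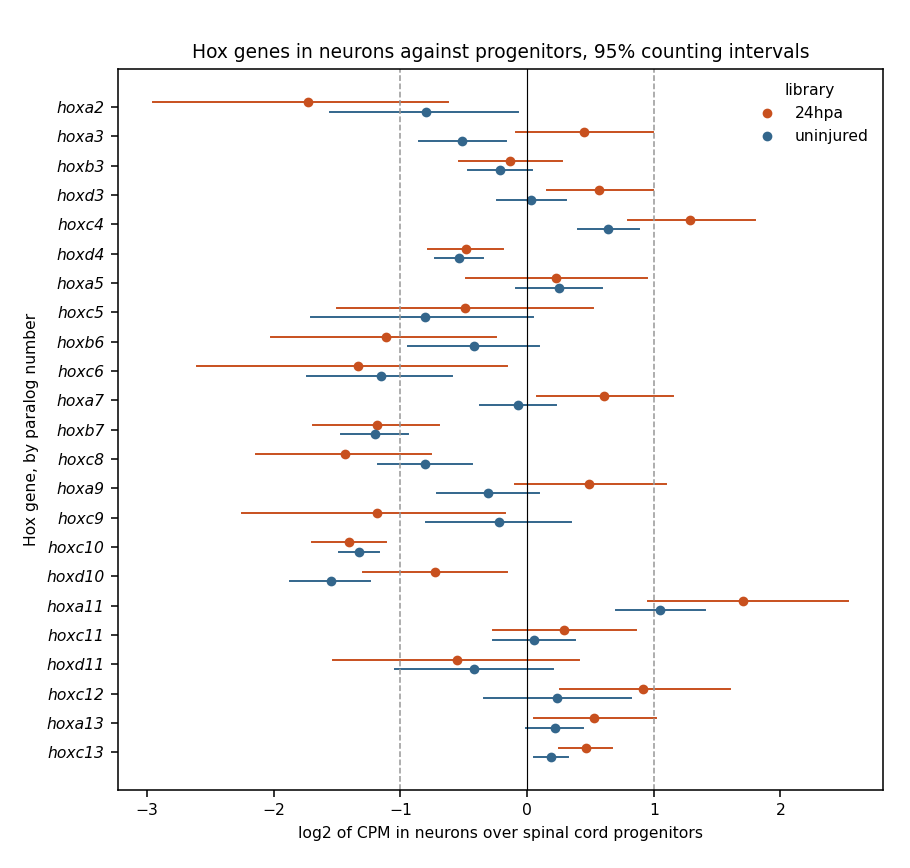
log2 of CPM in neurons over spinal cord progenitors (x axis) for each Hox gene by paralog number (y axis), 24hpa in orange above uninjured in blue, with 95% counting intervals and dashed lines at 2-fold. hoxc10 (-1.40 at 24hpa, -1.33 uninjured), hoxb7 and hoxc6 lie left of the lower line in both libraries, and hoxa11 (1.71 and 1.05) right of the upper one.

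The pattern over 14 cell clusters was also compared between libraries, gene by gene, as the correlation of log2(CPM + 1). It was 0.92 for hoxc10, hoxc13, hoxd3 and hoxd4, and 0.91 for hoxb6 and hoxc12. It was lowest for hoxa4 (0.08), hoxd1 (0.09) and hoxc5 (0.10), which had few UMIs. Between genes with at least 200 UMIs, pairs from the same Hox cluster had a median r of 0.67 at 24hpa and 0.74 uninjured, and pairs from different Hox clusters 0.62 and 0.61. The 6 HoxB pairs had the highest medians, 0.86 and 0.88. They join only hoxb3, hoxb5, hoxb6 and hoxb7, and the RefSeq model of hoxb3 overlaps those of hoxb5 and hoxb6. The gene most like hoxc13 was hoxc12 at 24hpa (0.96) and hoxa13 in the uninjured library (0.93). These points share library, depth and free RNA, and the values are a description only.

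Genes that act upstream of, beside or instead of Hox genes on the body axis were read from a list of 50, of which 29 were in the annotation. In neural cells 18 of them were tested, of which 4 were lower at 24hpa (8.88% of all genes) and 2 higher (8.76%), with 12 within 2-fold. The lower ones were mostly upstream posterior factors, of which 3 of 4 tested were lower. cdx2, a caudal-type activator of posterior Hox genes, had 51 UMIs (15.6 CPM) in neural cells at 24hpa and 476 (70.8 CPM) uninjured, a log2 ratio of -2.18 (-2.63 to -1.76). The related cdx4 had 38.6 and 59.5 CPM (-0.63, -0.93 to -0.33), within 2-fold. t, the notochord and tailbud factor brachyury, had 0 UMIs in neural cells at 24hpa and 43 uninjured (-2.80 or below), and the Wnt ligand wnt5b had 24 and 134 UMIs (-1.44).

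Over all cells 9 of 24 genes of the list were lower at 24hpa (10.7% of all genes) and 1 was higher (7.81%). Ratios over all cells, here and below, again mix changes within cell types with a different makeup of cell types. msgn1, a presomitic mesoderm factor, had 0 UMIs at 24hpa and 102 uninjured, a log2 ratio of -4.37 or below. t had 222 and 1223 UMIs (-1.75), and its level was highest in Notochord, at 136 CPM at 24hpa and 176 CPM uninjured. cyp26a1, which breaks down retinoic acid in the tailbud, had 30 and 294 UMIs (-2.58, -3.17 to -2.04), and its ROC level was 27.6 CPM at 24hpa and 298 CPM uninjured. The gene that was higher, cyp26b1, acts on the same substrate. It had 323 UMIs at 24hpa and 182 uninjured (1.54, 1.27 to 1.81), with 93.3 and 120 CPM in Myotome, a cluster of 184 of the 1090 cells at 24hpa and 81 of the 2617 uninjured.

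Of the Hox cofactors, meis3 was lower over all cells, with 357 UMIs (22.2 CPM) at 24hpa and 1888 (71.6 CPM) uninjured, a log2 ratio of -1.69 (-1.86 to -1.53). In neural cells it was within 2-fold (80.5 and 143 CPM, -0.83), and in progenitors it was lower, with 9 and 73 UMIs (-2.07). The other 6 cofactors were within 2-fold over all cells, and in neural cells pknox2 was higher on 11 and 9 UMIs (1.33, -0.08 to 2.78). dhrs3, a reductase that lowers retinaldehyde, was higher in neural cells, with 64 UMIs (19.6 CPM) at 24hpa and 29 (4.31 CPM) uninjured (2.18, 1.53 to 2.87). lin28a, an RNA-binding protein of the let-7 pathway, was lower in neural cells on 6 and 32 UMIs (-1.37), and lin28b was within 2-fold (0.68, 0.48 to 0.87). Head and hindbrain factors summed to 13.2 CPM at 24hpa and 22.2 CPM uninjured in neural cells, over 7 genes. Most of this came from mafb, which acts in hindbrain segmentation, with 32 and 112 UMIs (9.79 and 16.7 CPM), a level near that of hoxa2. The level of mafb was far higher in ROC, its highest cluster, at 233 CPM at 24hpa and 187 CPM uninjured. otx2 had 0 UMIs in both libraries and en2 1 and 0. emx1 and egr2 were lower at 24hpa over all cells, with 16 and 93 UMIs and 26 and 150 UMIs.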

How the data were processed

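The authors assigned barcodes and counted UMIs of 3′ libraries with Cell Ranger, and deposited UMI counts per gene and barcode for each library. The submitters' processing notes list GRCz11, a zebrafish build, which does not go with the frog gene IDs of the counts. A frog build for them is not given in the sources used here, so no coordinates are printed. Cells, cell clusters and the neural subset were taken from the authors' deposited Seurat tables. Clusters of all cells and of neural cells come from 2 separate tables, and 31 other columns of these tables were not used.

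UMIs were summed per library and cell cluster and divided by all UMIs of those cells (CPM). With 1 library per group there are no p-values. Intervals are 95% exact Poisson for levels, exact conditional for ratios, Clopper-Pearson for shares and Newcombe for differences of shares, and cover counting error only. Genes with fewer than 20 UMIs in both libraries together were not compared, and the rest were counted at 2-fold. Clusters with under 20 cells in a library were not compared. Totals per cell differed from the deposited ones by at most 157 UMIs at 24hpa and 138 in the uninjured library. No doublets were removed beyond the authors' gates. Free RNA was read from barcodes with at most 100 UMIs that were not cells, and globin transcripts put its share in cells at 1.61% at 24hpa and 5.29% uninjured. The 24hpa share rests on 8 globin UMIs in cells and 18 in free RNA, against 561 and 395 uninjured. It is thus poorly determined, as is the subtraction of free RNA at 24hpa.

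Every gene whose name matched a Hox cluster gene is a member. Values were given for members with at least 50 UMIs and summaries for hoxb4 and hoxc3. Some genes are counted in totals but not reported here by name. Of the axial list, genes with at least 50 UMIs and past 2-fold were named, and pknox2, lin28b, mafb, otx2 and en2 beside their groups. The members, the lists and the thresholds were chosen with earlier results of these data known. Overlap of gene models was read from RefSeq (UCB_Xtro_10.0) and not from the models behind the counts. Alternatives were TMM scaling, mean CPM per cell, cells with at least 1000 genes, no cells above 3 times their cluster's median, subtraction of free RNA, cluster makeup of the uninjured library, no leptin+ motor neurons, at least 50 UMIs, a fold of 1.5, thinning to 2600 UMIs, and posterior groups from 10 on. Counting per cell was added after the data were seen. Scripts were checked on simulated counts. Tools were Python 3.11.15, numpy 2.4.6, pandas 2.3.3, scipy 1.17.1, R 4.3.3 and edgeR 4.0.16, used for TMM factors.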

Additional observations from a re-analysis of the deposited data

Results flagged for a closer look

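Among the Hox genes past 2-fold, 3 moved in opposite directions in different cell clusters. They were picked from many ratios for counting intervals that did not reach each other, so that gap is not added evidence. The difference was not tested because each group is 1 library. The higher sides rest on few UMIs at 24hpa and uninjured: 25 and 7 (hoxa13), 41 and 17 (hoxa5), 23 and 11 (hoxa9). In ROC, 12.5% of Hox genes were called higher, against 14.5% of all genes, and in Motor Neuron 6.67% against 13.2%. hoxa13 had a log2 ratio of 1.57 in ROC and -1.49 in Spinal Cord Progenitor, and it was lower at 24hpa in 10 of the 14 clusters where it was tested. hoxa5 had 1.00 in ROC and -1.28 in Spinal Cord Progenitor, and was likewise lower in 10 of 14. hoxa9 had 1.23 in Motor Neuron and -2.50 in Skeletal Muscle (5 UMIs at 24hpa, 80 uninjured), and was lower in 4 of 14.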

How the results depend on the processing

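No paired analysis was possible because the labels carry no replicate numbers and each group is 1 library, so no library could be left out. With a fold of 1.5, 21 Hox genes were lower over all cells (19.4% of all genes), 16 in neural cells (16.1%) and 18 in progenitors (19.0%). Counted as UMIs per cell, 3 (5.39%), 4 (5.65%) and 1 (3.21%) were lower. The summed neural log2 ratio of -0.73 was -0.84 with TMM scaling, which moved neural ratios by -0.11, -0.60 as mean CPM per cell, -0.61 with the uninjured makeup, -0.59 without leptin+ motor neurons and -0.37 as UMIs per cell. The posterior share over all cells, 5.35 points higher at 24hpa, was 4.16 from group 10 on, 1.63 as mean CPM per cell and -1.57 with the uninjured makeup. Thinning moved the difference in cells with a Hox UMI from -5.94 to -12.6 points (neural -0.29 to -4.65) and that in Hox genes per cell from -1.01 to -0.80 (neural -1.51 to -1.30). As UMIs per cell, the neural ratio of hoxd3 was 0.0034 and not -0.36, on a scale that moves every gene alike and put the median of all genes at 0.45 and not 0.09. The cause of these differences was not tested. As mean CPM per cell, 8 Hox genes were lower over all cells, of which 7 were among the 12. Of the values of single genes, 30 more moved outside their counting interval and 193 stayed inside. In neural cells, hoxa11 (-0.71 and not -1.10) fell short of 2-fold and hoxc12 (1.03 and not 0.59) passed it as mean CPM per cell, and hoxb7 (-0.79) and hoxc10 (-0.99) fell short with the uninjured makeup. The other 36 main values stayed within 1.5 times for counts and inside the counting interval for the rest. Few cells at 24hpa limit the neuron clusters, where genes with under 20 UMIs could not be compared.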

Other observations

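Small cell groups left out of the comparisons held Hox transcripts too. The cluster named Other 1, with 14 cells at 24hpa and 31 uninjured, had 697 and 830 CPM of Hox transcripts, led by hoxc10 (142 and 251 CPM) and hoxc13 (142 and 144 CPM), and HoxC made up 71.8% and 64.3% of its Hox UMIs. In the uninjured Floor Plate, 23 cells had 2126 CPM of Hox transcripts, with hoxc10 at 435 CPM and hoxc13 at 382 CPM. hoxd1, an anterior gene with few UMIs, had its highest uninjured level in Satellite Cells/Differentiating Myotome, at 14.4 CPM (20 UMIs), against 0 UMIs at 24hpa in that cluster.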
